A study of Mus musculus with 3 samples.

Results

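CpG clusters that lie inside protein-coding genes but away from any transcript start were examined in genomic DNA of E14 mESCs, an established line of mouse embryonic stem cells. A cluster was a run of 20 or more CpGs in which no neighbours lay over 50 bp apart, built from the CpG positions listed on the autosomes of mm9. A cluster belonged here when it lay wholly within a protein-coding gene of the GENCODE M1 annotation and more than 2 kb from every annotated transcript start. The rule used positions only and no measured level. It selected 3898 of the 27183 autosomal clusters (14.3%). Of the others, 16674 lay within 2 kb of a start, 6348 overlapped no gene and were more than 2 kb from starts, and 263 lay in noncoding genes or across a gene border.

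No genetic alteration or experimental treatment is named for the cells, which were grown on gelatin in serum with LIF and the inhibitors PD0325901 and CHIR99021. DNA of the same line was sequenced with 3 methods, 1 library each, with shorter fragments in the CAPS library, so no value has a replicate and no test across samples could be made. TAPSβ (TET-assisted pyridine borane sequencing with glucose protection of 5hmC) reads 5mC as T. CAPS (chemical-assisted pyridine borane sequencing) reads 5hmC as T, and PS (pyridine borane sequencing) reads 5fC and 5caC as T. A level is the number of modified reads over all reads, pooled over the cytosines of a cluster on both strands. Intervals are 95% exact binomial intervals for levels and shares and log-scale intervals for ratios. They cover counting error only and treat calls of 1 read at several CpGs as independent.

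Most CpGs of the mouse genome are methylated, and dense runs of CpGs, known as CpG islands when they are long enough, are the usual exception. Islands at promoters are generally kept free of 5mC, whereas islands inside gene bodies are known to be methylated more often. TET enzymes oxidize 5mC to 5hmC and further to 5fC and 5caC, and mESCs express TET enzymes.

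The 3898 clusters held 127919 CpGs and had a median of 26 CpGs and a median length of 405 bp. The longest run by CpG number had 287 CpGs. The median distance to the nearest start was 12516 bp. They lay in 2612 of 21418 autosomal protein-coding genes (12.2%), of which 1818 had 1 cluster and 50 had 5 or more. Of the 3898, 3397 had at least 100 base calls in each library and entered the values below. The 501 left out were mostly of repeated sequence. A cluster was called repeated when the median count of its 24-base words on the autosomes, on both strands, was 10 or more, and 465 of the 501 met this. Among all 3898 clusters 1225 were repeated (31.4%), compared with 1.46% of clusters at starts and 68.6% between genes. The clusters left out had medians of 54 base calls in TAPSβ, 69 in CAPS and 76 in PS.

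The central 150 bases of 6 clusters are printed here to show what such sequences look like at different levels of modification. All are from the NCBIM37 reference (mm9), plus strand, in lower case with each CpG in capitals. The first 4 are the clusters with the most CpGs in each TAPSβ class among those not repeated. The others are the intronic cluster with the most CpGs and an intronic cluster of the imprinted gene Kcnq1.

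Cilp2, TAPSβ under 10%, coding exon, chr8:72405831-72405980: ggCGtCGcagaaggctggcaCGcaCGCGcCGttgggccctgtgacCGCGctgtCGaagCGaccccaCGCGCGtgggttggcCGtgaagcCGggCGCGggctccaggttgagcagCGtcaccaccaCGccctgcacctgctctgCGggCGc
Plec, TAPSβ 10 to under 30%, coding exon, chr15:76011065-76011214: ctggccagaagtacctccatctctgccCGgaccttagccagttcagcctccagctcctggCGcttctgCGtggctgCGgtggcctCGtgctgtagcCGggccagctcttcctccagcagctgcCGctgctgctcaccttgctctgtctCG
Lmtk3, TAPSβ 30 to under 60%, coding exon, chr7:53049143-53049292: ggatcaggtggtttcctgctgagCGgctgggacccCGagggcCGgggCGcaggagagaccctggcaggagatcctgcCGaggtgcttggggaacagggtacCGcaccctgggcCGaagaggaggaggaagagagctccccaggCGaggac
Zfp629, TAPSβ 60% or more, coding exon, chr7:134755060-134755209: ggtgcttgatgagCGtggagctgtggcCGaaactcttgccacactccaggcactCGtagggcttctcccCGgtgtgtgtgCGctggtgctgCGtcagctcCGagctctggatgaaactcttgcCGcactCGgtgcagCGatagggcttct
Agap1, TAPSβ under 10%, intron, chr1:91477444-91477593: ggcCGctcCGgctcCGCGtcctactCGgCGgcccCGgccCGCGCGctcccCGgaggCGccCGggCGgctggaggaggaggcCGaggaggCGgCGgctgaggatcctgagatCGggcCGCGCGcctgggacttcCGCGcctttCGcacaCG
Kcnq1, imprinted gene, intron, chr7:150481552-150481701: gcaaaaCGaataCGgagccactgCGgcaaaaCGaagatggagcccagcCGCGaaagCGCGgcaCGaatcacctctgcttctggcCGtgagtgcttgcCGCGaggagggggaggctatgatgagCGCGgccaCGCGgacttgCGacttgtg

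The class given is that of the whole cluster, and the window from Lmtk3 was itself at 22.1% TAPSβ (16.9 to 28.1%). The windows from Cilp2 and Agap1 hold 21 and 25 CpGs, and those from Plec and Lmtk3 hold 8 each. In the Agap1 window 0 of 742 TAPSβ base calls were modified (interval 0 to 0.496%), although the window lies in an intron. In the Zfp629 window, which encodes part of an array of zinc fingers, 34 of 46 calls were modified (73.9%, 58.9 to 85.7%), and all 10 CpGs carried modified calls.

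TAPSβ levels of the 3397 clusters covered nearly the whole scale, from 0 to 98.0%. The median cluster was at 21.1%, with quartiles of 5.51% and 52.7%. At starts, clusters built by the same rule were mostly under 10%, whereas clusters between genes split toward both ends of the scale. Clusters at starts were larger and denser, with medians of 49 CpGs and 9.12 CpGs per 100 bp, compared with 26 and 6.74 inside genes. The shares below were not matched for size or density. The minimum of 100 base calls left out 501 of 3898 clusters inside genes, 115 of 16674 at starts and 1625 of 6348 between genes. The part of this loss in the shares was not tested. Under 10% were 1202 clusters (35.4%, 33.8 to 37.0%), compared with 92.4% at starts and 34.3% between genes. From 10 to under 30% were 804 (23.7%), and from 30 to under 60% were 716 (21.1%). At 60% or more were 675 clusters (19.9%, 18.5 to 21.3%), compared with 1.23% at starts and 32.2% between genes. Without repeated clusters, 40.3% of 2637 clusters inside genes were under 10% and 14.4% at 60% or more. The same comparison between genes gave 68.0% of 1944 under 10% and 12.4% at 60% or more.

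**Figure D1:**
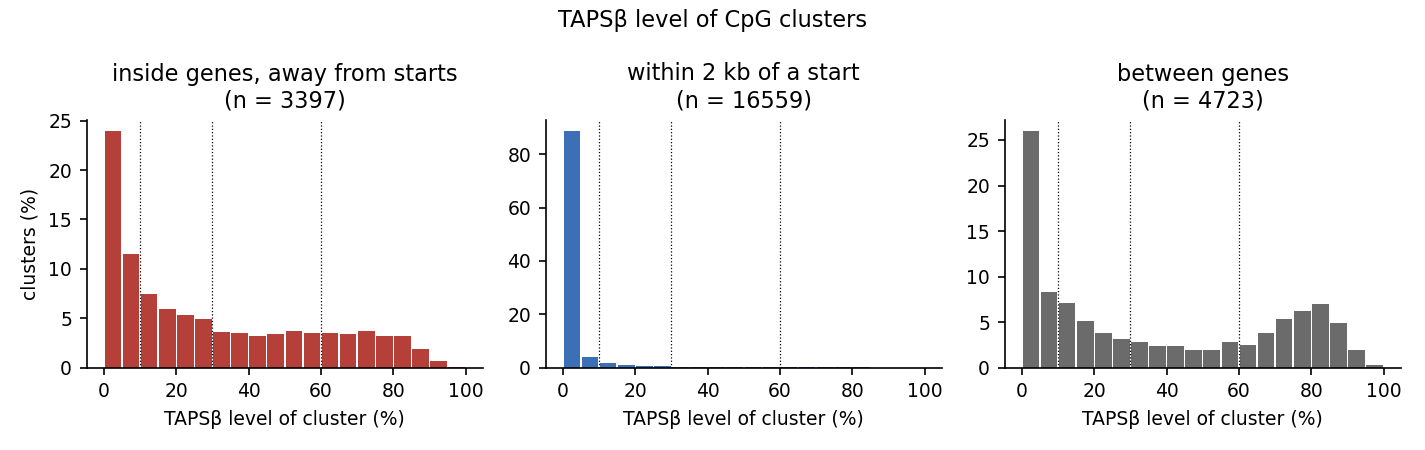
Histograms of the TAPSβ level per cluster (x axis, %, bins of 5 points) with the share of clusters on the y axis (%, own scale in each panel), for clusters inside genes away from starts, within 2 kb of a start and between genes. Dotted lines mark the class limits at 10, 30 and 60%. Clusters inside genes spread over all levels, while 92.4% of those at starts lie under 10%.

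In most clusters the 2 strands gave similar levels in TAPSβ. Over 3005 clusters with at least 100 calls on each strand, the strands differed by a median of 2.33 points. The 95th percentile was 14.1 points, and both strands fell in the same class in 2553 clusters (85.0%). Pearson's r between strands across these clusters was 0.97. In CAPS it was 0.59 over 2872 clusters, with strands apart by a median of 1.19 points and a 95th percentile of 5.14 points. In PS, with all cytosines, it was 0.53 over 3219 clusters. Each r is a description across clusters of 1 library that share reads and base composition. Measured levels of single CpGs within a cluster were mixed in the intermediate classes. With as few as 10 reads at a CpG, sampling alone can move it to a neighbouring class, and its part here was not tested. In clusters of 10 to under 30%, 34.7% of the CpGs with at least 10 TAPSβ reads were under 10%, 43.5% at 10 to under 30%, and 19.9% at 30 to under 60%. In clusters of 30 to under 60%, 52.0% of such CpGs were at 30 to under 60%, 3.58% under 10%, and 23.5% at 60% or more. In clusters under 10%, 46212 of 51347 such CpGs were under 10%.

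CAPS levels rose and then fell along the TAPSβ classes. The pooled CAPS level was 1.76% (1.73 to 1.78%) in clusters under 10% TAPSβ, 5.08% (5.01 to 5.16%) at 10 to under 30%, 5.32% (5.24 to 5.41%) at 30 to under 60%, and 2.55% (2.498 to 2.61%) at 60% or more. Both intermediate classes were thus highest. Levels were not corrected for the CAPS false-positive rate, taken as 0.72% in the test below, so the ratios are of raw levels. The 30 to under 60% class was 2.08 times the class of 60% or more (2.03 to 2.14) and 3.03 times the class under 10% (2.96 to 3.10), each in the same direction on 19 of 19 autosomes. The class under 10% was 0.687 times that of 60% or more (0.668 to 0.707) and lower on 18 of 19 autosomes. This direction depended on the class limits, since with limits of 20 and 80% the lowest class was 1.47 times the highest (1.40 to 1.55). Without repeated clusters the 4 levels were 1.68, 5.19, 5.50 and 3.02%. The spread among clusters was wide in every class. At 30 to under 60% the quartiles of the clusters were 3.52% and 6.98%, and under 10% they were 0.972% and 2.85%.

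In finer steps of TAPSβ, over clusters not repeated, CAPS went from 0.800% in clusters under 1% TAPSβ to a highest value of 6.14% (5.97 to 6.32%) at 30 to under 40%, and came down to 1.95% (1.77 to 2.15%) at 80% or more. Against clusters at starts of the same TAPSβ step, CAPS inside genes was between 0.987 and 1.18 times as high. Against clusters between genes it was 1.23 times as high at 40 to under 50% TAPSβ (1.14 to 1.33). This ratio was above 1 on 14 of 18 autosomes and rests on 44 clusters between genes. At 20 to under 30% it was 1.15 (1.09 to 1.22, above 1 on 15 of 19 autosomes). At 30 to under 40% and 50 to under 60% it was 1.13 and 1.10, each with 9 autosomes above 1 and 9 below. In the steps from 60% up the ratios lay between 0.985 and 1.09. The lowest of these ratios was 0.871 (0.812 to 0.934), at 1 to under 2% TAPSβ, with 9 autosomes above 1 and 10 below. From 2 to under 20% TAPSβ they lay between 0.975 and 1.04.

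**Figure D2:**
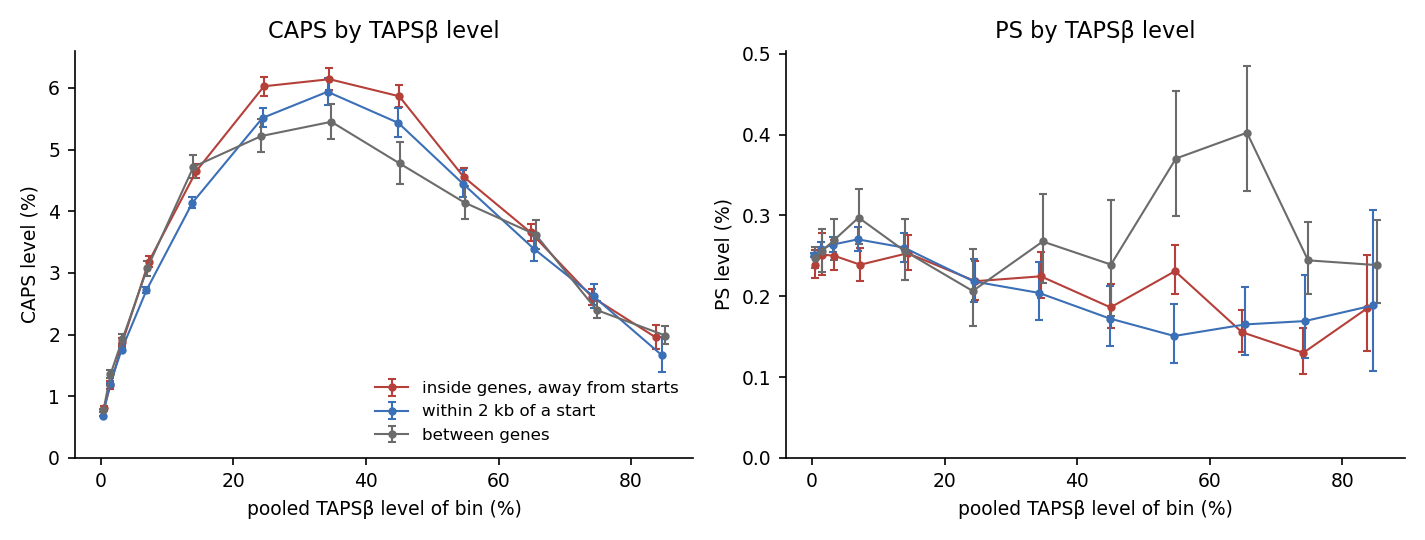
Pooled CAPS level (left, %) and pooled PS level (right, %) against the pooled TAPSβ level (%) of clusters grouped by TAPSβ level, without repeated clusters. Points are pooled levels of clusters inside genes, at starts and between genes, and bars are 95% exact intervals. CAPS inside genes peaks at 6.14%, while PS inside genes is at most 0.253%.

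Of the 3397 clusters, 2442 (71.9%) were called in CAPS, that is, their level exceeded the rate of 0.72% in a one-sided exact binomial test with Benjamini-Hochberg adjustment over all clusters at an adjusted p under 0.05. In the whole set of 24897 clusters 32.9% were called. By TAPSβ class, 50.6% of clusters under 10% were called, 94.7% at 10 to under 30%, 93.9% at 30 to under 60%, and 59.4% at 60% or more. At starts 18.0% were called, and 12.02, 92.96, 94.05 and 75.37% from the lowest to the highest TAPSβ class. Between genes 56.02% were called, and 33.44, 89.45, 85.65 and 46.87% in the same classes. From 10 to under 60% TAPSβ the shares inside genes were thus close to those at starts. They were higher than at starts under 10% and lower at 60% or more. Against clusters between genes they were higher in each class. TAPSβ levels within a class were not matched. Of the clusters under 10%, 310 of 1202 inside genes were under 1% TAPSβ, 12090 of 15296 at starts and 731 of 1618 between genes. In the finer steps under 10%, without repeated clusters, CAPS levels inside genes were 0.987 to 1.18 times those at starts. Against clusters between genes they were 0.871 to 1.04 times. The number of base calls behind each test differed, with a median of 390 inside genes and 809 at starts in CAPS.

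PS levels lay between 0.259 and 0.310% over the 4 classes. With variant-like cytosines left out (those that reached 20% in PS where 5 reads or more covered them), the pooled level was 0.259% under 10% TAPSβ, 0.265% at 10 to under 30%, 0.310% at 30 to under 60%, and 0.274% at 60% or more. The rate used as background in the test was 0.27%. The class under 10% was 0.944 times that of 60% or more (0.876 to 1.02). This ratio depended on repeated clusters, since without them it was 1.63 (1.44 to 1.85, above 1 on 17 of 19 autosomes), with levels of 0.244, 0.239, 0.214 and 0.150% from the lowest to the highest class. With variant-like cytosines kept it was 0.643. The 4 levels without repeated clusters lie under the rate of 0.27%, and those with them close to it. No difference in 5fC or 5caC is therefore read from these ratios. PS called 43 clusters (1.27%) above that rate, compared with 0.856% of all clusters. Of these 43, 42 touched no exon and 37 were repeated.

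Clusters that overlap an exon and those in introns alone had different class shares, and repeated sequence was uneven between them. An exon of a protein-coding gene was overlapped by 1985 of the 3397, in 1928 of them by coding sequence, and 1412 lay in introns alone. At 60% TAPSβ or more were 13.4% of exon clusters and 29.0% of intron clusters, a ratio of 0.463 (0.403 to 0.531). The ratio was 0.188 with at most 30 bp between CpGs, 0.198 with at least 30 CpGs and 0.0874 with class limits of 20 and 80%. Of the intron clusters 753 were repeated, compared with 7 of the exon clusters. Without repeated clusters the shares were 13.2% of 1978 and 18.2% of 659, and the ratio was 0.725 (0.595 to 0.883). At 30 to under 60%, the share was 1.51 times as high in exon clusters (1.31 to 1.74), and 1.54 times without repeated clusters. The share under 10% changed direction. It was 37.5% in exon and 32.4% in intron clusters, but 37.6% and 48.7% without repeated clusters.

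**Figure D3:**
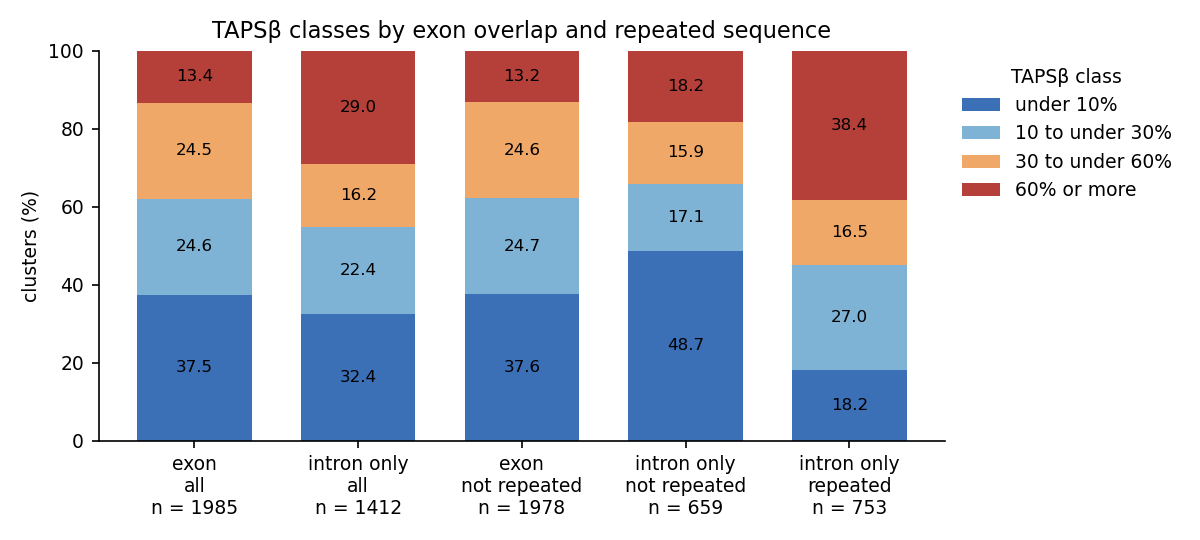
Share of clusters (%) in each TAPSβ class for exon-overlapping and intron-only clusters, with all clusters, without repeated clusters, and for repeated intron clusters. Colours mark the 4 classes, numbers in the bars are shares in %, and n is the number of clusters. Repeated intron clusters hold the largest share at 60% or more.

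At 60% TAPSβ or more, CAPS was 3.34% (3.23 to 3.45%) in exon and 2.11% (2.05 to 2.18%) in intron clusters, a ratio of 1.58 (1.51 to 1.65) that was above 1 on 17 of 19 autosomes and 1.49 without repeated clusters. TAPSβ in this class was lower in exon clusters, at 69.2% against 77.3%, and CAPS fell within it from 3.6005% at 60 to under 70% TAPSβ to 2.59% at 70 to under 80% and 1.56% at 80% or more. The part of this difference in 5mC level in the CAPS ratio was not tested. At 30 to under 60% TAPSβ the CAPS ratio was 1.18 (1.14 to 1.22), with TAPSβ levels 0.990 times each other. Clusters on untranslated exons alone numbered 57 and had a CAPS level of 2.85%. In PS, exon clusters were at 0.221% and intron clusters at 0.366%, and without repeated clusters at 0.221 and 0.257%. Only the 0.366%, which includes repeated clusters, lay above the rate of 0.27% used as background, so no fold is read from them.

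Repeated clusters fell into groups of different base composition. The 179 with 10 to under 100 copies had a median TAPSβ level of 68.4%. The 220 with 100 to under 500 copies had a median of 78.1%, a GC content of 53.7% and an observed-to-expected CpG ratio of 0.911. The 361 with 500 copies or more had a median TAPSβ level of only 14.5%, with a GC content of 65.2% and a CpG ratio of 0.634. In this last group 31.9% were under 10% TAPSβ and 5.26% at 60% or more, and the pooled CAPS level was 3.66%. No repeat annotation was used, so these groups carry no family name.

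Larger and denser clusters had less 5mC. Among clusters of 20 to 29 CpGs, 23.4% were under 10% TAPSβ and 25.3% at 60% or more. Among the 80 clusters of 100 CpGs or more, 70 (87.5%) were under 10% and 0 were at 60% or more, which allows a share of up to 4.51%. The 400 clusters at the limit of 20 CpGs had a median TAPSβ level of 42.2%. Across the 2637 clusters not repeated, Spearman's rho with the TAPSβ level was -0.45 for CpG number, -0.55 for CpGs per 100 bp and -0.54 for GC content. These are descriptions across clusters that share 1 library. TAPSβ coverage also fell with CpG density in the more methylated classes, as given with the coverage values, and its part in these relations was not tested.

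Distance to a start also went with the level, though less. At up to 5 kb from a start, 49.1% of 935 clusters were under 10%, and at over 50 kb 22.5% of 485 were. The 226 clusters within 500 bp beyond the 2 kb limit had a median of 8.59%, with 52.7% under 10%. The 295 clusters inside coding genes but within 500 bp short of that limit had a median of 6.14%, with 61.4% under 10%. An annotation may lack starts, so the 60 bases around each RefSeq start (RefSeq promoter sequences, GRCm38.p6) were looked up in the clusters and 2 kb around them. A match was found for 998 of the 3898 clusters, in 279 inside the cluster, and a match can be a copy of the start in a repeated sequence. Of the 653 matched clusters with enough calls 33.8% were under 10% TAPSβ, 10.9% at 30 to under 60%, and 28.8% at 60% or more. Without a match these shares were 35.8, 23.5 and 17.7% of 2744. With the match inside the cluster, 45.7% of 197 were at 60% or more.

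Clusters with little 5mC formed narrow valleys. Those under 10% had 3.04% TAPSβ inside and 46.2% at CpGs 2 to 4 kb away. Their level was 10.1% within 100 bp of the edge and 40.8% at 750 to 1000 bp. CAPS was highest on the slope of this valley. It was 1.76% inside, 4.93% at 500 to 750 bp and 3.99% at 2 to 4 kb. PS 2 to 4 kb away was at 0.177 to 0.191%, under the rate of 0.27% used as background, and inside clusters at 0.259 to 0.310%, close to that rate, so no fold is read from them. The flanks were not computed without repeated clusters. Clusters of 10 to under 30% had CAPS levels of 5.08% inside, 6.54% at 100 to 200 bp and 3.97% at 2 to 4 kb. At 30 to under 60% TAPSβ, CAPS inside was 1.33 times that 2 to 4 kb away (1.30 to 1.35), and at 60% or more it was 0.769 times (0.749 to 0.790). The CpGs of each cluster were also put in 5 equal groups along its length. In clusters under 10%, the middle group was lower than both end groups in either library, with 1.90% against 4.63 and 4.32% in TAPSβ and 1.28% against 2.28 and 2.18% in CAPS.

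**Figure D4:**
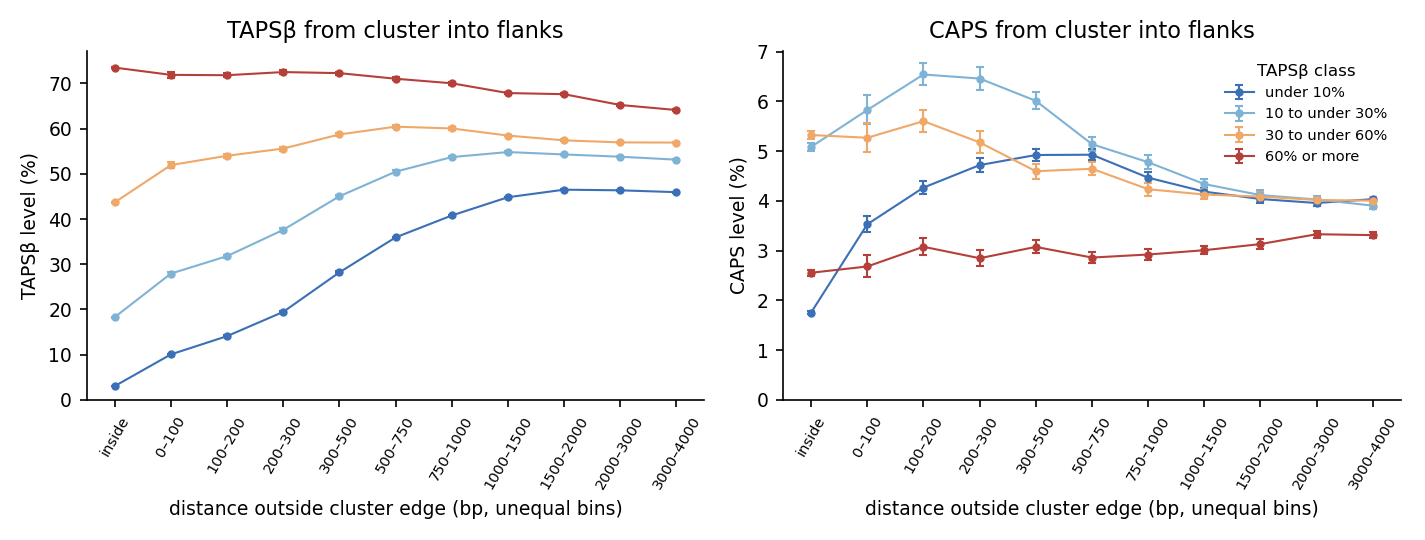
Pooled TAPSβ level (left, %) and CAPS level (right, %) inside clusters and by distance outside the cluster edge (bp, unequal bins), for the 4 TAPSβ classes of clusters inside genes. CpGs in other clusters are left out of the flanks, and bars are 95% exact intervals. In clusters under 10% TAPSβ, CAPS rises from 1.76% inside to 4.93% at 500 to 750 bp.

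Coverage of the 3 libraries differed with the class. Inside clusters, TAPSβ had 14.5 reads per cytosine under 10%, 10.98 at 10 to under 30%, 8.13 at 30 to under 60%, and 5.65 at 60% or more. PS had 9.31, 8.96, 9.76 and 9.62 reads in the same classes. TAPSβ coverage over PS coverage thus went from 1.56 to 0.587 inside clusters, but only from 1.31 to 1.18 at CpGs 2 to 4 kb away. The fall was steeper where CpGs were denser. Among clusters of 60% or more that were not repeated, this ratio was 0.767 below 6 CpGs per 100 bp and 0.501 at 8 or more. CAPS had fewest reads in the class of 10 to under 30%, at 0.687 times PS. The part of these coverage differences in the levels was not tested.

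**Figure D5:**
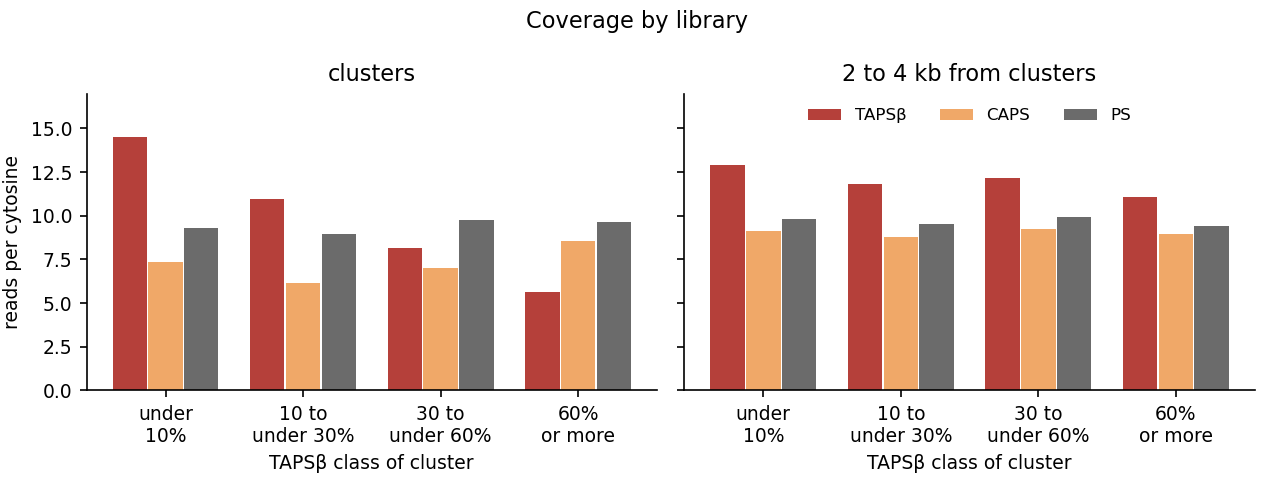
Reads per cytosine of TAPSβ, CAPS and PS (bars, from 0) inside clusters and at CpGs 2 to 4 kb away, by TAPSβ class. TAPSβ falls from 14.5 to 5.65 reads inside clusters, while PS stays between 8.96 and 9.76.

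Single clusters show the range within the same kind of sequence. The cluster with the most CpGs spanned 2397 bp (chr8:72404707-72407103) with 287 CpGs, in coding sequence of Cilp2, which encodes a cartilage matrix protein. It had 380 of 8970 TAPSβ calls modified (4.24%), 76 of 5206 in CAPS (1.46%) and 14 of 6369 in PS (0.220%). Agap1, which encodes a regulator of Arf GTPases, had a cluster of 244 CpGs within an intron, 16726 bp from a start, at 1.42% TAPSβ and 0.650% CAPS. A cluster of 208 CpGs in Tchh, which encodes a structural protein of hair follicles, was at 0.508% TAPSβ, and one of 207 CpGs in Dact3, an antagonist of Wnt signalling, at 1.83%. Each of these large clusters was low in TAPSβ, and the highest CAPS level among them was the 1.46% of Cilp2. The intronic cluster of 229 CpGs in Gm20388 was at 0.500% TAPSβ and 0.559% CAPS.

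In the class of 10 to under 30%, the largest cluster lay in Plec, which encodes the cytoskeletal linker plectin. It had 192 CpGs, 13.8% TAPSβ (12.9 to 14.8%) and 2.48% CAPS (1.961 to 3.10%). Clusters in coding exons of Lingo3, Begain and Espnl had 12.7, 10.9 and 18.2% TAPSβ, with CAPS levels of 3.15, 2.81 and 4.44%. Slc32a1, which encodes the vesicular transporter of GABA and glycine, had 14.6% TAPSβ and 3.48% CAPS over 115 CpGs. At 30 to under 60%, Lmtk3 (85 CpGs) had 30.1% TAPSβ and 4.63% CAPS, and Rbm47, which encodes an RNA-binding protein, had 35.2% and 5.996% over 75 CpGs. CAPS was higher in these than in the larger, less methylated clusters above.

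The other 3 of the 5 largest clusters of this class, in Zfp704, Sh3rf3 and Acnat1, were repeated sequence with median word counts of 19, 1217 and 13. The one in Zfp704 had only 1.28 TAPSβ reads per cytosine. At 60% or more, the cluster of 83 CpGs in Zfp629 was the only one of the 5 largest that was not repeated. It was at 79.8% TAPSβ (76.8 to 82.6%) and 1.53% CAPS (1.04 to 2.18%), with 4.66 TAPSβ and 11.8 CAPS reads per cytosine. Introns of Nalcn, which encodes a sodium leak channel, and of Gm7995, Gm17384 and Gm20388 held the other 4, at 60.7 to 81.8% TAPSβ and 0.885 to 3.12% CAPS.

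Among the highest CAPS levels were those of 4 small clusters of intermediate TAPSβ, which rest on few calls. Ephb4, a receptor for ephrins, had 35 of 225 (15.6%, 11.1 to 21.0%) at 21.2% TAPSβ. Arhgap17 and Dst had 14.5% each, at 30.9 and 49.7% TAPSβ, and Kif26a had 13.9% at 17.8% TAPSβ. These 4 have 20 to 23 CpGs each, their CAPS intervals overlap, and they were picked for these values. PS had at most 1 modified call in any of them.

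The 5 highest PS levels, among clusters with at most 2 times the median coverage in each library, had a different setting. All 5 lay in introns, at 3.51 to 4.46%, in Abcb1a, Gpr180, Prkca, Rere and Rgs9. The one in Abcb1a had a median word count of 2773 and 9 modified of 202 calls. Those in Prkca, Rere and Rgs9 held 11, 5 and 7 variant-like cytosines beyond the ones counted here. These were picked for their PS values too.

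The gene with the most clusters was Gm20388, a gene model of 4435 kb on chromosome 8, with 53. Of these, 32 lay in no other protein-coding gene, and whether so long a model stands for 1 gene was not tested. C130026I21Rik had 12 clusters, all repeated, with a median of 68.0% TAPSβ. Pcdhgc5, a member of the clustered protocadherins of neuronal surfaces, had 11 clusters, all in introns of a 168 kb gene model, from 0.292 to 26.1% TAPSβ. Plec also had 11, all overlapping exons, from 13.8 to 75.2% TAPSβ and from 2.19 to 9.05% CAPS, so that 1 gene held clusters of 3 classes. Uncx, a homeobox gene, had 10 along a gene model of 59.7 kb, of which 1 overlapped an exon, and none was above 28.6%.

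Gene lists are set beside all 3397 clusters, of which 35.4% were under 10% TAPSβ, with a median of 21.1%. Of these clusters 71.9% were called in CAPS and 1.27% in PS, and of all 24897 autosomal clusters tested 32.9% and 0.856%. The lists hold few clusters each, and their counts are descriptions. All 5 clusters in Hox genes, which pattern the body axis, were under 10%, from 0.544% in Hoxc9 to 5.33% in Hoxc4, with Hoxb3 at 2.53% and Hoxc13 at 4.21%, and 2 of 5 were called in CAPS. In other homeobox and paired box genes 48 of 65 were under 10% (73.8%), with a median of 2.52%, and 35 of 65 were called in CAPS. Their largest clusters lay in coding exons of Nkx2-3 (0.452%), Nkx2-1 (0.708%), Lhx6 (1.53%) and Lhx5 (0.568%). In Notch and Wnt pathway genes 16 of 32 were under 10%, and 23 of 32 were called in CAPS, near the 71.9% of all 3397, with 4 at 60% or more and a median of 10.85%. The cluster of 97 CpGs in an intron of Wnt3 was at 0.277% TAPSβ and 0.152% CAPS, and that of 67 CpGs in Wnt6 at 0.156% and 0.485%. Wnt10a was at 0.445% TAPSβ and Wnt3a at 6.645%.

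Zfp genes, which encode zinc finger proteins, had 31 of 87 clusters under 10% and a median of 21.1%, with 69 of 87 called in CAPS. Zfp697 had a cluster of 150 CpGs at 0.294%, far from the 79.8% of Zfp629, and Zfp467 and Zfp46 had 1.10 and 1.245%. Ion channel genes, taken by symbols that start with Kcn, Scn or Cacna, had 23 of 70 under 10% and 20 at 60% or more, with 49 of 70 called. In this list Kcns1, Cacna1c, Cacna1a and Kcnj9 had the largest clusters, from 0.323 to 4.82% TAPSβ. Chromatin regulators had 8 of 30 under 10% and a median of 39.3%, with 21 of 30 called. Tet1, which encodes one of the enzymes that oxidize 5mC, had an intronic cluster of 51 CpGs at 0.110% TAPSβ and 0.410% CAPS, Kdm6b, a demethylase of histone H3, one at 0.313% TAPSβ, and Chd7, a chromatin remodeller, one of 38 CpGs at 67.3% and 3.14%. Clustered protocadherins had 7 of 18 under 10%, with 12 of 18 called, and their 4 largest clusters, all in Pcdhgc5, were at 4.46 to 14.1% TAPSβ. Collagen genes, which encode extracellular matrix proteins, had 5 of 10 at 60% or more and a median of 51.5%, with 7 of 10 called. Col6a2 was at 84.5% TAPSβ and 1.25% CAPS and was not called. Col8a1 and Col19a1 were at 88.2 and 80.7% TAPSβ, and Col8a2 was at 1.10%. No cluster of these lists was called in PS, which with so low a share over all clusters tells nothing about the lists.

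Imprinted genes are expressed from 1 parental allele and are marked by 5mC at control regions. Their 15 clusters had a median TAPSβ level of 38.4%, with 2 under 10% and 4 at 60% or more. Their median CAPS level was 1.36%, compared with 3.19% over all clusters, and 7 of the 15 were called, compared with 71.9% of all 3397. In Kcnq1, an intron of which is known to hold an imprinting control region, the cluster of 33 CpGs at chr7:150481475-150481777 had 77 of 759 TAPSβ calls modified (10.1%, 8.09 to 12.5%) and 6 of 648 in CAPS (0.926%). The cluster of Trappc9 had 38.6% TAPSβ and 4.29% CAPS, and those of Zdbf2 and H13 had 2.83 and 0.642% TAPSβ. The 4 largest clusters of this list thus spanned 3 classes.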

How the data were processed

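Genomic DNA of E14 mESCs was sequenced with TAPSβ, CAPS and PS, 1 library each. The authors trimmed reads with Trim Galore 0.3.1, mapped them to mm9 with BWA 0.7.12, removed duplicates with Picard 2.3.0 and reads with a mapping quality under 10, and called modified bases with asTair. They deposited, per CpG cytosine, the count of reads with a modified and with an unmodified base, not normalized, and the fraction of modified reads, which was not used. On the autosomes this gave 499928217 (TAPSβ), 368690187 (CAPS) and 375116986 (PS) base calls. The authors left artifact-prone regions and known E14 variants out of their later analyses, and whether the deposited values already lack them is not given in the sources used here.

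Counts were pooled per cluster, with at least 100 calls in each library. CAPS and PS were tested against rates of 0.0072 and 0.0027 over all 24897 clusters. Calling and intervals were run on simulated counts drawn from independent binomials at set rates. These hold no calls linked within 1 read, no repeated sequence and no background that varies among clusters. No call rests on them. TAPSβ and CAPS levels keep all cytosines, and PS levels leave out variant-like ones. Named clusters had coverage of at most 2 times the median cluster in each library, and were the 5 with the most CpGs overall and per class, the 5 highest in CAPS and in PS, and the 4 with the most CpGs per gene list, together with the 5 genes with the most clusters. Some clusters named by the rule are not reported here. Clusters, gene lists and the rule were chosen with earlier results of these data known, and repeated sequence, distance profiles, coverage by class, RefSeq starts and sequence windows were chosen after seeing the data. Values were computed in Python 3.11.15 with scipy 1.17.1, numba 0.67.0, pandas 2.3.3 and numpy 2.4.6, and drawn with matplotlib 3.10.9.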

Additional observations from a re-analysis of the deposited data

How the results depend on the processing

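No paired analysis was possible because each method has 1 library, and for the same reason no replicate could be left out. Of 104 alternative values, 45 stayed within the counting interval or 1.5 times the count, 58 moved beyond it and 1 changed direction. The PS ratio, whose interval of 0.876 to 1.02 holds 1, has no direction to change, and it lay on either side of 1 among the alternatives below. The cause of these changes was not tested. The reported values are 35.4% of clusters under 10% TAPSβ and 19.9% at 60% or more, CAPS ratios to the class of 60% or more of 2.08 (30 to under 60%) and 0.687 (under 10%), a PS ratio of 0.944 (under 10%), an exon to intron ratio of 0.463 for the share at 60% or more, and 2442 and 43 clusters called in CAPS and PS.

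With class limits of 20 and 80% the CAPS ratio of the lowest to the highest class turned to 1.47. The other ratio was then 2.98, the shares were 48.8 and 5.92%, and the exon to intron ratio was 0.0874. With at most 30 bp between CpGs the shares were 69.7 and 7.52%, the CAPS ratios 1.81 and 0.551, the exon ratio 0.188, and the calls 374 and 7 of 1090 clusters (34.3 and 0.642%, with 6.51 and 0.209% over all clusters). With at least 30 CpGs they were 54.6 and 11.2%, 2.31 and 0.813, 0.198, and 778 and 16 of 1303 (59.7 and 1.23%, with 19.7 and 0.467% over all clusters). With at least 200 base calls the shares were 38.2 and 17.04%, the CAPS ratios 2.01 and 0.639, the exon ratio 0.535, and PS calls 28 of 2981 (0.939%, with 0.672% over all clusters). On the plus strand alone the shares were 38.3 and 16.8%, the lower CAPS ratio 0.649, the PS ratio 0.818 and PS calls 21 of 2848 (0.737%, with 0.337% over all clusters). On the minus strand alone they were 39.4 and 16.9%, 0.628, 1.06 and 18 of 2834 (0.635%, with 0.413% over all clusters), and the higher CAPS ratio was 2.00. At more than 5 kb from starts the shares were 30.2 and 23.4% and the lower CAPS ratio 0.722. With starts of protein-coding transcripts alone they were 38.1 and 18.3%, and 0.655. Leaving out variant-like cytosines gave CAPS ratios of 2.16 and 0.727, and keeping them gave a PS ratio of 0.643 and 99 PS calls (2.91%, with 2.31% over all clusters). Without clusters over 2 times the median coverage the lower CAPS ratio was 0.709 and the PS ratio 1.21. As a mean of cytosine levels these were 0.829 and 1.19. Bonferroni adjustment left 1525 and 27 calls (44.9 and 0.795%, with 16.5 and 0.442% over all clusters).

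Leaving out repeated clusters was chosen after seeing the data. It gave shares of 40.3 and 14.4%, CAPS ratios of 1.82 and 0.556, a PS ratio of 1.63, an exon ratio of 0.725 and 6 PS calls of 2637 clusters (0.228%, with 0.137% over all clusters). Leaving out the clusters that lie in Gm20388 alone, also chosen after seeing the data, moved none of the 8 values. At an unadjusted p under 0.05, 142 of 3397 clusters passed in PS, 422 of 16559 at starts and 410 of 4723 between genes. By chance alone, a fraction of up to 0.05 of clusters with a level at the rate can pass. The counts inside genes and at starts lie below that fraction, and the count between genes lies above it. That fraction is an upper limit, and an exact test on few modified reads can pass fewer. A count below it therefore does not show whether the 142 exceed chance, and 43 of them also passed after adjustment. A median of 390 CAPS calls per cluster limits how small a level could be called.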
